A study of Mus musculus with 6 samples.

Results

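Myoglobin and the enzymes that make and break down haem were followed in C2C12 cells, a mouse myoblast line that fuses into multinucleated myotubes when serum is lowered. The members are the rows of the count table with the symbols Mb, Alas1, Alad, Urod, Cpox, Ppox, Fech, Hmox1 and Hmox2. They are 9 of the 27179 genes in the table, and all 9 were abundant enough to be tested, among 12800 genes. The 3 myotube libraries came from C2C12 cells that stood at full confluence for 3 days and then spent 5 days in high-glucose DMEM with 2% horse serum and a supplement of insulin, transferrin, selenium and ethanolamine. The 3 myoblast libraries came from C2C12 cells kept below confluence in high-glucose DMEM with 10% fetal bovine serum. Both media held 4 mM glutamine. Serum, cell density and the added transferrin and selenium differ together with the differentiated state, so their effects cannot be told apart. The study's design text calls the harvests triplicates without saying that each was a culture of its own, so the error given here may be partly or wholly technical.

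Haem synthesis begins and ends in the mitochondrion. Aminolevulinate synthase joins glycine with succinyl-CoA, an intermediate of the tricarboxylic acid cycle, and the product passes through cytosolic steps to coproporphyrinogen. Coproporphyrinogen oxidase, protoporphyrinogen oxidase and ferrochelatase then finish the molecule inside the mitochondrion, where iron is inserted. Haem oxygenases open the ring and release iron, carbon monoxide and biliverdin. In muscle, haem serves the respiratory cytochromes and myoglobin, the oxygen-binding protein of oxidative fibres and heart.

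Library totals ranged from 7370169 to 8339589 counts in myotubes and from 10076945 to 11723881 counts in myoblasts. Levels are given as CPM, the count per 1000000 counts of a library, after TMM scaling, which adjusts library sizes for differences in composition. The cell states named in the labels matched their markers. The summed level of 6 differentiated-muscle genes (Myog, Myh3, Ckm, Acta1, Tnnt3 and Mymk) was 12100 to 12600 CPM in myotube libraries and 67.2 to 85.7 CPM in myoblast libraries. The myogenic factor Myod1, which both states express, had 169 ± 6.12 CPM in myotubes and 188 ± 4.59 CPM in myoblasts (SD, n = 3).

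Across the 9 members, 6 rose in myotubes (Mb, Alas1, Urod, Cpox, Fech and Hmox2), 1 fell (Alad) and 2 (Ppox and Hmox1) did not pass. A pass means an adjusted p under 0.05 in the quasi-likelihood F test of edgeR, with p-values adjusted by the Benjamini-Hochberg method over every gene tested, and adjusted p-values below come from that test unless another is named. By the same rule 79.5% of all genes tested were called, 40.2% higher and 39.2% lower, so a call by itself was the usual outcome in this comparison. The CPM of the groups did not overlap for any of the 9, as for 80.5% of the genes tested. Mb was the only member that passed a test for a change of more than 2-fold, a test that called 12.4% of genes higher and 9.20% lower. The median log2 change of the members was 0.29, against 0.02 over all genes tested. In size, 7 of the 9 members had an absolute log2 change below 0.56, the median absolute change of all genes tested. With total counts in place of TMM the median of all genes moved by −0.15, to −0.13. The calls over all genes were then 4269 higher and 5935 lower, where TMM gave 5146 higher and 5024 lower.

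**Figure D1:**
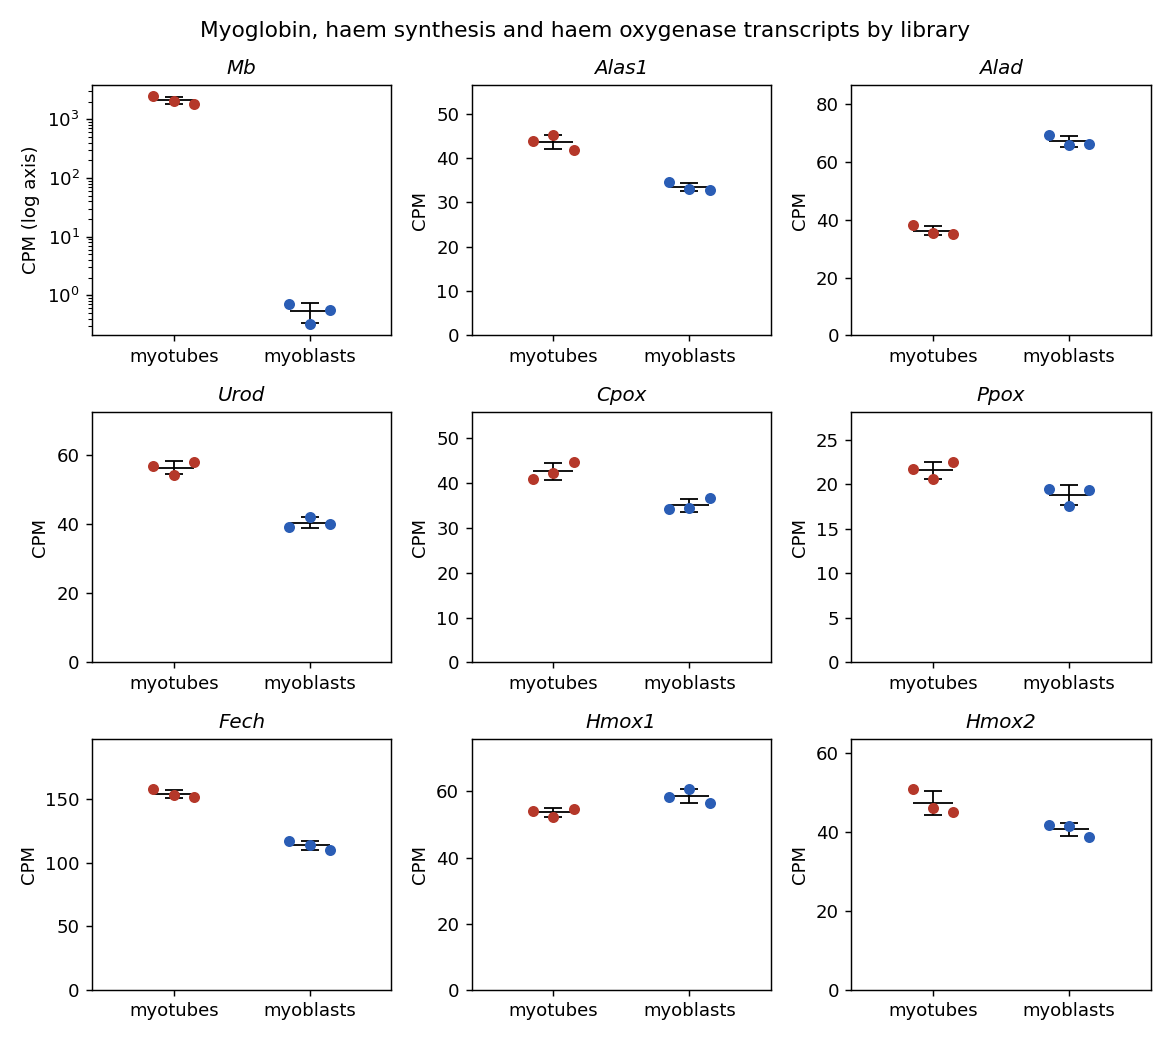
CPM of each member in the 3 myotube libraries (red points, left) and the 3 myoblast libraries (blue points, right), with the mean and SD in black; the axis of Mb is logarithmic and the others start at 0. Mb spans 1853 to 2474 CPM in myotubes and 0.325 to 0.719 CPM in myoblasts, while the other members differ between groups by much less.

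Myoglobin (Mb), which stores oxygen and eases its diffusion in muscle fibres, was close to absent in myoblasts and abundant in myotubes. Myotube libraries 1, 2 and 3 held 17334, 15504 and 14669 Mb counts, or 2474, 2098 and 1853 CPM. Myoblast libraries 1, 2 and 3 held 8, 4 and 6 counts, or 0.719, 0.325 and 0.565 CPM. Every myotube library lay far above every myoblast library, and among myotubes library 1 was the highest and library 3 the lowest. Mb took 0.176 to 0.235% of all counts of a myotube library. The log2 change was 11.95 (SE 0.26, adjusted p = 3.28e-07, edgeR quasi-likelihood test), the 6th largest of all genes tested. The ratio of the pooled levels was 4030, from 47507 myotube counts and 18 myoblast counts. Its exact (Clopper-Pearson) 95% binomial interval, 2550 to 6800, covers counting error only. In bulk RNA, fewer cells that express a gene and less RNA per cell cannot be told apart, which holds for this and every level given here.

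The Mb gene (Entrez gene 17189) lies on the minus strand of chromosome 15 at 77015487 to 77050668 in GRCm38, the assembly that mm10 names. An annotated antisense transcript, Gm49540, covers 412 of the 1254 exon bases of the curated Mb transcripts, or 32.9%, and Apol6, on the same strand as Gm49540, covers 5.10%. No source used here gives the strand setting with which reads were counted. Apol6 had 16, 26 and 11 counts in myotube libraries and 9, 11 and 4 counts in myoblast libraries, few beside the Mb counts of myotubes and of the same order as those of myoblasts. Their part in the myoblast level of Mb was not tested.

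Among other globins no gene reached the minimum for testing. Cytoglobin (Cygb) had 0, 1 and 1 counts in myotube libraries and 4, 10 and 7 counts in myoblast libraries. Neuroglobin (Ngb) had 0, 3 and 1 counts in myotubes and 0 in each myoblast library. The alpha-globin gene Hba-a1 had 1 count in all myotube libraries together and 10 in all myoblast libraries together, and Hba-a2, Hbb-bs and Hbb-b1 were at 0 in all 6 libraries. Reads of these globin genes can be split between near-identical copies. None of these 6 genes, the other globins of the list found in the table, came near the myotube level of Mb. The erythroid marker Gata1 was at 0 in every library, and the summed level of the erythroid list was 0.677 to 1.14 CPM in myotubes and 0.488 to 1.26 CPM in myoblasts. Of the macrophage list, Adgre1 was at 0 throughout and Ptprc had 1 count in each group, while Itgam rose to 2.29 ± 0.275 CPM in myotubes, against 0.0614 ± 0.0532 CPM in myoblasts (SD, n = 3). For Itgam, 72.4% of its 50-base windows also occur in the transcript of another gene. The part of Itgam in the results on haem genes was not tested. Cd163 had 66 counts in all myotube libraries and 93 in all myoblast libraries, and Cd68 had 38 and 64, and neither passed. Csf1r had 4 counts in all myotube libraries and 5 in all myoblast libraries. The summed level of the macrophage list was 6.36 to 7.83 CPM in myotubes and 4.05 to 5.45 CPM in myoblasts.

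The genes whose change across the 6 libraries was most like that of Mb were Myh8 (distance 1.42), Myh4 (1.84) and Myl4 (1.99), 2 myosin heavy chains and a myosin light chain. The distance is Euclidean, between profiles of log2(CPM + 1) centred on each gene's own mean, and was measured over the 9779 tested genes with a symbol and a mean of at least 10 CPM. Myh8 averaged 996 ± 18.9 CPM in myotubes and 0.562 ± 0.0881 CPM in myoblasts, and Myh4 650 ± 21.3 CPM in myotubes and 0.301 ± 0.157 CPM in myoblasts (SD, n = 3). Myh8 and Myh4 share 21.4% and 18.9% of their 50-base windows with another gene. Mb had a wider spread over the myotube libraries than either, with 2142 ± 313 CPM.

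The upstream windows of 3 members are shown because Mb rose the most of the members, Alad was the one that fell, and Urod had the largest increase among the synthesis members. Each is the 250 bases before a start listed by RefSeq on GRCm38.p6, read 5′ to 3′ on the gene's own strand, and holds no annotated exon of the gene in GENCODE. The Mb window precedes an internal start and lies in an intron of the longest form. Capitals mark CAGCTG in Mb, an E-box form bound by myogenic factors, and CACGTG in Alad and Urod, an E-box form bound by factors such as USF and MYC. All 3 genes are on the minus strand.
Mb, chr15:77022788-77023037: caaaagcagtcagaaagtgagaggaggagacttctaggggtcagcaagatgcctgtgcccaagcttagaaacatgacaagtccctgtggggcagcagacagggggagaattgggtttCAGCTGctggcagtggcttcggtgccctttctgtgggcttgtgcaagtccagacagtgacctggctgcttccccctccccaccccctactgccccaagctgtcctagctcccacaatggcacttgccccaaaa
Alad, chr4:62520064-62520313: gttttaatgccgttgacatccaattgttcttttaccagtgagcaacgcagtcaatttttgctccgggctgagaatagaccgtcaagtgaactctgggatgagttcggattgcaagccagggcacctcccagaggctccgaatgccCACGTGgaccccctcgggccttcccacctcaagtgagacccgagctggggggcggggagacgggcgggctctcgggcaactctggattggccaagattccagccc
Urod, chr4:116994414-116994663: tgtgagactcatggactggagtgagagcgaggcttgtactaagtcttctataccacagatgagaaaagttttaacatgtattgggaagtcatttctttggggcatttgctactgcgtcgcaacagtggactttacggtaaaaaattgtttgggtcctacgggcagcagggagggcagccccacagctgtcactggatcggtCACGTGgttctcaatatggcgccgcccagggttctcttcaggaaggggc

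Counting back from the listed start, the CAGCTG of the Mb window begins at −133, the CACGTG of Alad at −105 and that of Urod at −49. The Urod window also holds CAGCTG at −68, which does not overlap its CACGTG. Over all 32851 such windows of the RefSeq table, 13% hold CAGCTG and 6.02% hold CACGTG. Windows were listed for 7 of the 9 members, 13 windows in all, and none for Fech or Hmox1, which were not searched. Of the 13, 4 held CAGCTG (the same site in 2 overlapping Mb windows, Urod and Hmox2) and 3 held CACGTG (Alad in 2 and Urod). Both motifs read the same on either strand. A core of the antioxidant response element, TGAC and GC with any 3 bases between them, was searched on either strand. It was in 2 of the 13 windows, the same site in the 2 overlapping Mb windows, and in 10.2% of all windows. A MEF2-like motif, CTA and TAG with any 4 bases between them, was in 1, of Alas1, and in 3.2% of all. CACGTG was found upstream of a gene that fell and of one that rose, and these matches describe the sequence only.

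Aminolevulinate synthase (Alas1, Entrez gene 11655, chromosome 9 at 106233455 to 106247954) makes the first committed precursor and is the rate-limiting step outside red cells. Alas1 had 43.8, 45.2 and 41.9 CPM in myotube libraries 1, 2 and 3, against 34.6, 32.9 and 32.9 CPM in myoblast libraries. All myotube values lay above all myoblast values. The log2 change was 0.38 (SE 0.07, adjusted p = 1.70e-05), or 130% of the myoblast level. With total counts it was 0.24 (adjusted p = 0.00292). The antisense transcript 4930500F10Rik covers 11.7% of the exon bases of Alas1. The erythroid form Alas2 had 2, 1 and 2 counts in myotubes and 7, 4 and 5 counts in myoblasts, a trace level in both groups.

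NRF1, a regulator of nuclear genes for mitochondria, binds a motif of GCGC, then A and any base, then GCGC, searched on both strands. One of the 13 member windows held that motif, an Alas1 window with 2 matches, against 3.74% of all windows. The 30 bases around the match nearer to the start at chr9:106247906-106247935, on the minus strand and with the motif in capitals, lie in the first exon of an annotated Alas1 transcript and upstream of another start.
Alas1: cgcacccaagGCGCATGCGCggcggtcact
The transcript of Nrf1 itself fell to 27.5 ± 2.40 CPM in myotubes, against 49.2 ± 1.32 CPM in myoblasts (SD, n = 3; log2 change −0.83, SE 0.07, adjusted p = 1.28e-10). Alas1 and Nrf1 thus moved in opposite directions at the transcript level.

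The second enzyme, aminolevulinate dehydratase (Alad, Entrez gene 17025, chromosome 4 at 62505984 to 62520063), was the member that fell. Alad had 38.1, 35.6 and 35.1 CPM in myotube libraries 1, 2 and 3, against 69.4, 65.9 and 66.1 CPM in myoblast libraries. Its level in myotubes was 54.0% of that in myoblasts (log2 change −0.89, SE 0.06, adjusted p = 1.83e-12), and the test for more than 2-fold did not pass (adjusted p = 1).

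Later cytosolic steps went the other way. Uroporphyrinogen III synthase (Uros), also outside the members, had 18.0, 17.6 and 23.1 CPM in myotube libraries and 8.36, 8.86 and 10.7 CPM in myoblast libraries. In both groups library 3 was the highest, and the log2 change was 1.08 (SE 0.13, adjusted p = 2.63e-08; adjusted p = 0.398 for more than 2-fold). Uroporphyrinogen decarboxylase (Urod, Entrez gene 22275, chromosome 4 at 116989965 to 116994436) makes coproporphyrinogen. Urod had 56.8, 54.3 and 58.0 CPM in myotube libraries and 39.2, 42.2 and 40.04 CPM in myoblast libraries, with no overlap. Its log2 change was 0.48 (SE 0.06, adjusted p = 1.89e-07) and 0.33 with total counts (adjusted p = 3.91e-05).

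The 3 mitochondrial end steps had smaller positive differences, of which 2 passed. Coproporphyrinogen oxidase (Cpox, Entrez gene 12892, chromosome 16 at 58670208 to 58680391) had 40.8, 42.2 and 44.6 CPM in myotube libraries and 34.1, 34.3 and 36.6 CPM in myoblast libraries. Its log2 change was 0.29 (SE 0.07, adjusted p = 0.000585), and with total counts the call was lost (0.14, adjusted p = 0.0678). Protoporphyrinogen oxidase (Ppox, Entrez gene 19044, chromosome 1 at 171276991 to 171281193) had 21.7, 20.6 and 22.5 CPM in myotube libraries and 19.5, 17.6 and 19.4 CPM in myoblast libraries. The Ppox groups were close but did not overlap, and the difference missed the threshold, with a log2 change of 0.20 (SE 0.09, adjusted p = 0.0541). It passed by a small margin with DESeq2 size factors (adjusted p = 0.0468) and in limma-voom (adjusted p = 0.0480), and with total counts the log2 change was 0.05.

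Ferrochelatase (Fech, Entrez gene 14151, chromosome 18 at 64456542 to 64489098) inserts iron into protoporphyrin. Fech had 158, 154 and 152 CPM in myotube libraries 1, 2 and 3, against 117, 114 and 110 CPM in myoblast libraries. The groups were well apart, with a log2 change of 0.44 (SE 0.045, adjusted p = 2.26e-09) that kept its call with total counts (0.29, adjusted p = 1.88e-06). With 3439 counts in myotubes and 3873 in myoblasts, Fech had the most counts of the synthesis members and the smallest SE.

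With Uros beside the 6 synthesis members, 5 of these 7 enzymes rose (Alas1, Uros, Urod, Cpox and Fech), 1 fell (Alad) and Ppox did not pass. Within a library, the log2(CPM + 1) of Alas1 minus the mean of Alad, Urod, Cpox, Ppox and Fech was −0.18 ± 0.08 in myotubes and −0.45 ± 0.03 in myoblasts (SD, n = 3). The difference was 0.27, with an exact two-sided permutation p = 0.1 (adjusted p = 0.1 over 2 comparisons), the smallest p that 3 against 3 libraries allow. The values were −0.18, −0.09 and −0.25 in myotube libraries and −0.41, −0.46 and −0.48 in myoblast libraries, without overlap. The mean that Alas1 was set against includes Alad, which fell (log2 change −0.89). The log2 change of Alas1, 0.38, lay within the range of Urod, Cpox, Ppox and Fech, 0.20 to 0.48. A rise of Alas1 relative to those genes without Alad was not tested. The 3 genes most like Alas1 in their centred profile were Slc39a1 (distance 0.042), Rabgef1 (0.048) and Mrrf (0.063), each 129 to 132% of its myoblast level.

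**Figure D2:**
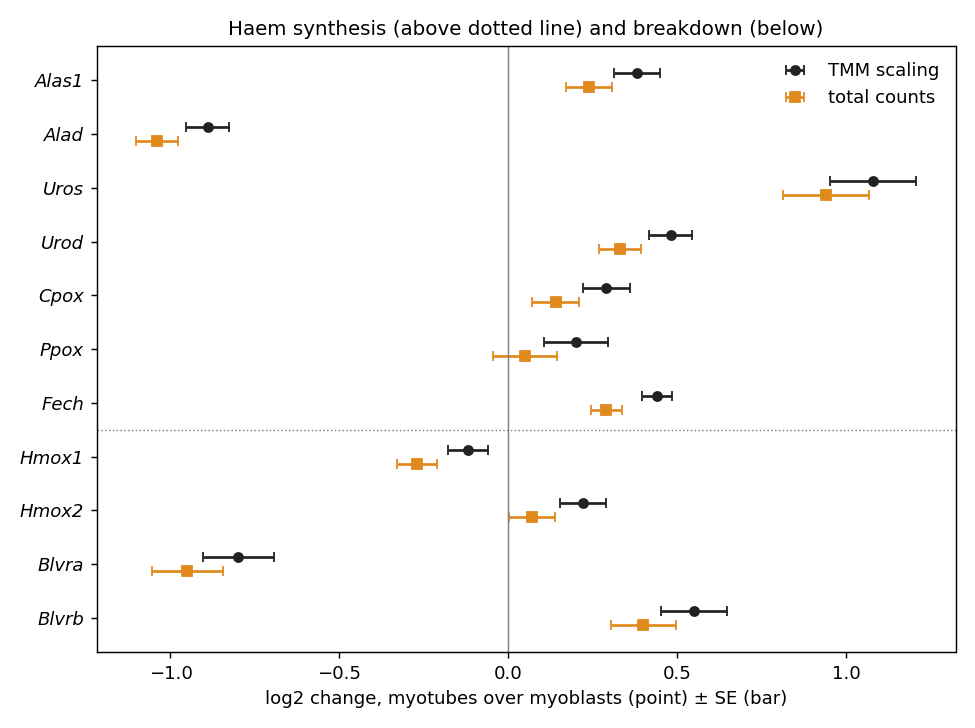
Log2 change of myotubes over myoblasts (horizontal axis, point with SE bar) for the synthesis members and Uros in pathway order and of haem breakdown below the dotted line, with TMM scaling (black circles) and total counts (orange squares). Alad lies left of 0 between the positive Alas1 and Uros under both scalings, and total counts shift each gene to the left by a similar amount.

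Haem oxygenase 1 (Hmox1, Entrez gene 15368, chromosome 8 at 75093618 to 75100593) is the form induced by haem and oxidative stress. Hmox1 had 54.2, 52.3 and 54.8 CPM in myotube libraries, against 58.4, 60.7 and 56.4 CPM in myoblast libraries. All myotube values lay just below all myoblast values, and the difference missed the threshold, with a log2 change of −0.12 (SE 0.06, adjusted p = 0.0626). It passed with total counts (−0.27, adjusted p = 0.000218), without the low-count filter (−0.17, adjusted p = 0.0154), after thinning to equal depth (−0.15, adjusted p = 0.0290) and without myoblast library 3 (−0.15, adjusted p = 0.0421).

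Haem oxygenase 2 (Hmox2, Entrez gene 15369, chromosome 16 at 4726361 to 4766742) is the constitutive form. Hmox2 had 50.8, 46.2 and 45.1 CPM in myotube libraries and 41.7, 41.5 and 38.8 CPM in myoblast libraries. The log2 change was 0.22 (SE 0.07, adjusted p = 0.00540), and with total counts the call was lost (0.07, adjusted p = 0.346). Cdip1, on the opposite strand, shares 892 of the 2157 exon bases of Hmox2, or 41.4%. Cdip1 itself rose by a log2 change of 0.89 (SE 0.06, adjusted p = 3.58e-13), with 739, 781 and 739 counts in myotubes and 623, 682 and 560 in myoblasts. Without a stated strand setting, reads of the shared part cannot be assigned with certainty, and the part that Cdip1 has in the Hmox2 result was not tested.

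As a share of the counts of both oxygenases, Hmox1 made up 51.6, 53.1 and 54.9% in myotube libraries and 58.3, 59.4 and 59.2% in myoblast libraries. The shares are not corrected for length, and each myotube value lay below each myoblast value. The log2 ratio of Hmox1 to Hmox2 was 0.18 ± 0.09 in myotubes and 0.51 ± 0.03 in myoblasts (SD, n = 3), a difference of −0.33. The exact two-sided permutation test gave p = 0.1 (adjusted p = 0.1 over 2 comparisons), again the smallest that the design allows. The difference ranged from −0.38 to −0.29 when each library was left out. Share and ratio both rest on the Hmox2 counts, and the part of the Cdip1 overlap in them was not tested.

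Biliverdin, the product of both oxygenases, is reduced to bilirubin by biliverdin reductase A (Blvra), and Blvra fell. Blvrb, the gene named biliverdin reductase B, is given beside it and rose, but is not counted as a gene of that step. Blvra had 15.6, 14.8 and 16.6 CPM in myotube libraries and 30.6, 27.4 and 23.7 CPM in myoblast libraries (log2 change −0.80, SE 0.105, adjusted p = 1.51e-07). Blvrb had 25.0, 23.6 and 22.4 CPM in myotube libraries and 14.8, 17.4 and 16.1 CPM in myoblast libraries (log2 change 0.55, SE 0.10, adjusted p = 1.61e-05). In both genes the groups did not overlap. The electron donor of haem oxygenase, cytochrome P450 reductase (Por), named after its values were seen, fell to 62.2% of its myoblast level.

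Levels of different genes were compared per kilobase of exon, with the exon length of curated transcripts. In myotubes the order by mean was Mb at 1710 ± 249 CPM per kilobase, Urod at 37.8 ± 1.27, Hmox1 at 34.3 ± 0.858, Alad at 28.5 ± 1.26, Fech at 23.5 ± 0.490, Hmox2 at 22 ± 1.41, Cpox at 13.7 ± 0.615, Ppox at 11.9 ± 0.530, Alas1 at 11 ± 0.414 and Uros at 8.22 ± 1.30 (SD, n = 3). The ranges of Fech and Hmox2 overlapped, as did those of Ppox and Alas1. In myoblasts Alad led at 52.8 ± 1.52 CPM per kilobase and Mb came last at 0.428 ± 0.158. Between them stood Hmox1, Urod, Hmox2, Fech, Cpox, Ppox, Alas1 and Uros in falling order, and no neighbours in that order overlapped.

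Alas1, the rate-limiting enzyme of the pathway in non-erythroid cells, was among the lowest synthesis transcripts per length in both groups. Its place depends on the length used. With the exons of all annotated transcripts Alas1 ranked 7th of these 10 genes in myotubes and 6th in myoblasts, against 9th in myotubes and 8th in myoblasts with curated transcripts. Mb stayed first in myotubes and last in myoblasts under both lengths, and Alad first in myoblasts.

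**Figure D3:**
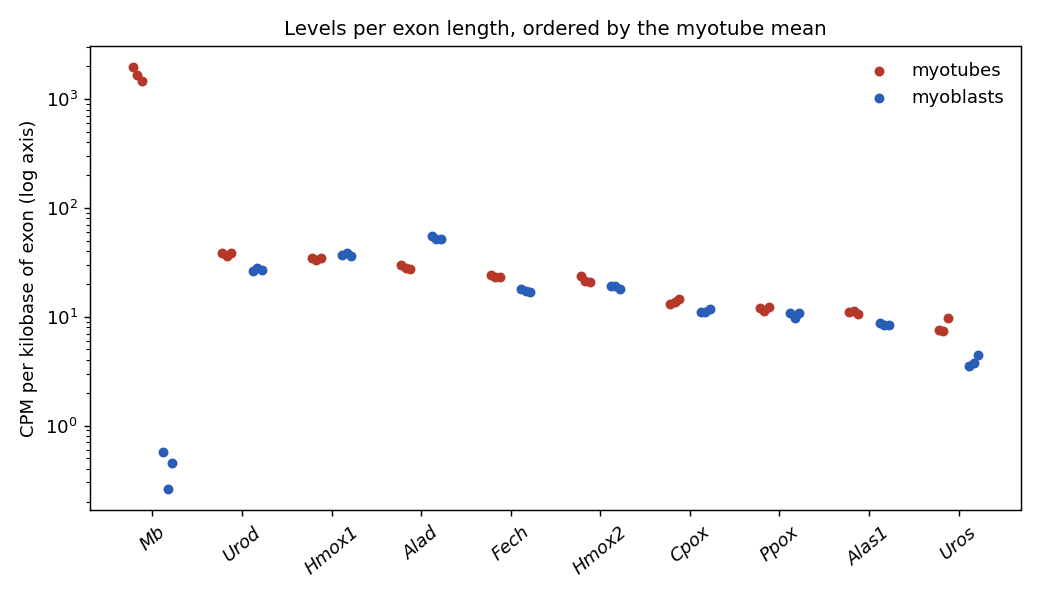
CPM per kilobase of curated exon length on a logarithmic axis, for the 9 members with Uros, in myotube (red, left) and myoblast (blue, right) libraries, 1 point a library, ordered by the myotube mean. Mb is first in myotubes (1710) and last in myoblasts (0.428), while the other genes stay between 3.51 and 54.6.

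Hmox1 was set beside the regulators and other targets of the pathway that controls it. BACH1 represses Hmox1 until haem binds it, and NRF2 (Nfe2l2) activates Hmox1 together with other antioxidant genes. Of 14 tested genes of this list 10 fell, 3 rose and 1 (Nfe2l2) did not pass, with a median log2 change of −0.47, against 39.2% of all genes tested that fell. Nqo1, a quinone reductase, had the largest decrease, to 10.2 ± 1.95 CPM in myotubes, against 51.8 ± 4.63 CPM in myoblasts (SD, n = 3; log2 change −2.35, SE 0.11, adjusted p = 1.49e-16).

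Other genes of this list were named after their values were seen. The glutathione synthesis subunit gene Gclm was at 23.0% of its myoblast level, sulfiredoxin (Srxn1) at 25.3%, glutathione reductase (Gsr) at 26.1%, thioredoxin reductase (Txnrd1) at 35.7% and Gclc at 45.5%. All of these passed the test for more than 2-fold, Gclc by a small margin (adjusted p = 0.0422). Hmox1, at 91.8% of its myoblast level, did not share that size of decrease, and the difference between Hmox1 and these genes was not tested. Slc7a11, at 73.5% of its myoblast level, and Osgin1, at 122%, did not share that size of decrease either.

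The regulators, also named after their values were seen, had small differences. Bach1 rose to 98.4 ± 2.93 CPM in myotubes, against 86.3 ± 4.14 CPM in myoblasts (log2 change 0.19, adjusted p = 0.00194), and Nfe2l2 had 177 ± 9.80 CPM in myotubes and 183 ± 7.13 CPM in myoblasts (log2 change −0.05, adjusted p = 0.348). The small MAF partner genes differed in direction. Mafk rose the most of the list, with a log2 change of 0.52 (SE 0.08, adjusted p = 1.70e-06), while Maff (log2 change −0.49, SE 0.11, adjusted p = 0.000217) and Mafg (log2 change −0.31, SE 0.07, adjusted p = 0.000205), named after their values were seen, fell. With total counts 11 genes of the list fell and 1 rose. The 3 genes most like Hmox1 in their centred profile were 2610507B11Rik (distance 0.032), Xpnpep1 (0.042) and Gabpa (0.056), each at 90.2 to 91.5% of its myoblast level.

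Iron genes moved in both directions. Of 16 tested genes of iron uptake, storage and export 6 rose and 8 fell, with a median log2 change of −0.15. With TMM 40.2% of all genes tested rose and 39.2% fell, so a split in direction was not particular to this list. With total counts 5 genes of the list rose and 9 fell. The transferrin receptor gene Tfrc, the main route of iron entry, fell to 119 ± 12.3 CPM in myotubes, against 188 ± 2.97 CPM in myoblasts (SD, n = 3; log2 change −0.66, adjusted p = 2.09e-11). The iron exporter ferroportin (Slc40a1) was 4.08-fold higher, with 42.1 ± 5.90 CPM in myotubes and 10.3 ± 0.735 CPM in myoblasts (adjusted p = 2.92e-15). Both were named after their values were seen.

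The largest increase on the iron list was that of the second transferrin receptor gene Tfr2, from few counts: 49 in all myotube libraries and 16 in all myoblast libraries (log2 change 2.19, SE 0.42, adjusted p = 3.76e-05). The largest decrease was that of the ferritin light chain gene Ftl1, to 65.0 ± 3.14 CPM in myotubes, against 317 ± 4.40 CPM in myoblasts (log2 change −2.29, adjusted p = 7.25e-24). Ftl1 shares 90.6% of its 50-base windows with other transcripts, chiefly the pseudogene Ftl1-ps1, so its count is uncertain. The ferritin heavy chain gene Fth1, named after its values were seen, rose to 125% of its myoblast level.

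**Figure D4:**
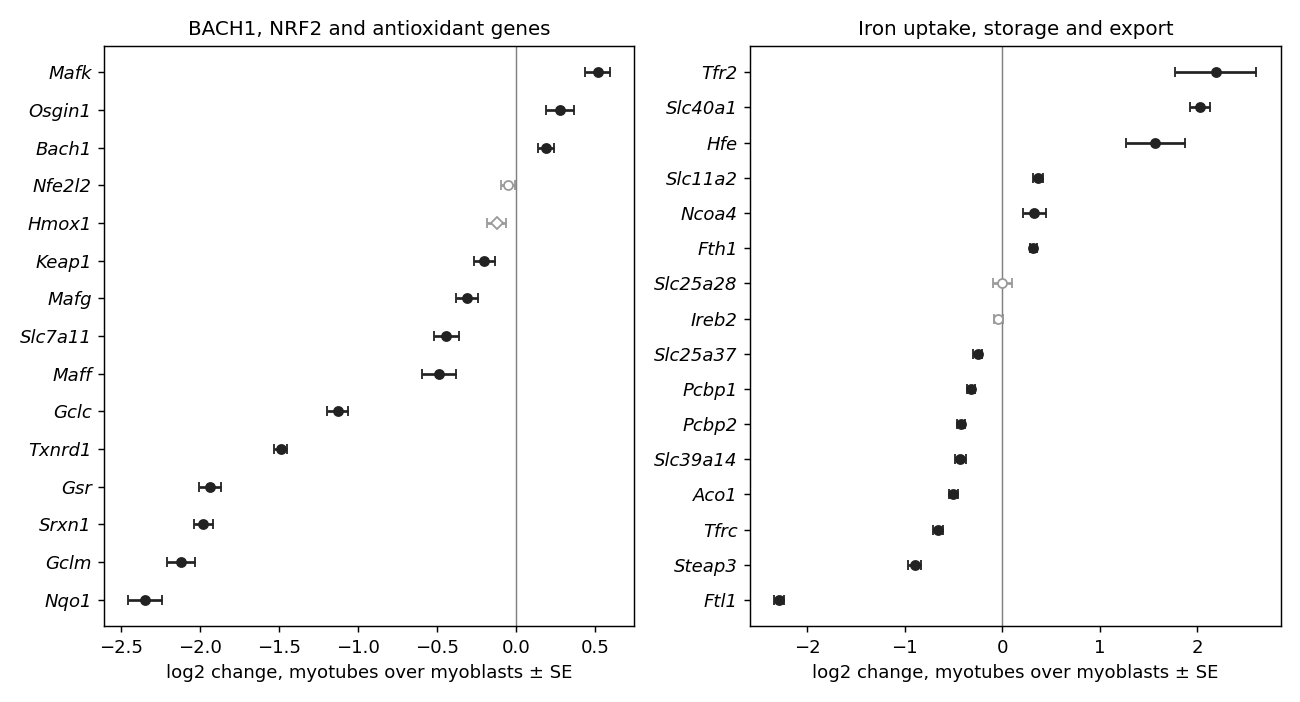
Log2 change of myotubes over myoblasts with SE bars (horizontal axis) for the tested BACH1, NRF2 and antioxidant genes with Hmox1 as a diamond (left) and for the tested iron genes (right); grey open symbols did not pass. Hmox1 (−0.12) lies beside Nfe2l2 and well to the right of Gclc, Txnrd1, Gsr, Srxn1, Gclm and Nqo1 (−1.13 to −2.35). Slc7a11 (−0.44) and Osgin1 (0.28) also lie to the right of those genes.

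Genes that supply or move haem and its precursors were also divided. In the list of mitochondrial import, export and iron-sulfur supply 4 of 11 tested genes rose and 4 fell. Of all genes tested 40.2% rose and 39.2% fell. The median log2 change of the list was 0.03, and with total counts 4 rose and 6 fell. The iron-sulfur scaffold gene Iscu had 40.7, 38.7 and 41.8 CPM in myotube libraries and 18.96, 21.6 and 19.4 CPM in myoblast libraries (log2 change 1.01, SE 0.08, adjusted p = 1.87e-11). Iscu shares 23.5% of its 50-base windows with other transcripts. Slc25a38, the mitochondrial glycine carrier that feeds aminolevulinate synthase, fell to 61.5%, and Clpx, an unfoldase that acts on that enzyme, rose to 135%; both were named after their values were seen.

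Of 9 tested haem transport and breakdown partners 2 rose and 5 fell, against 40.2% and 39.2% of all genes tested. The median log2 change was −0.49, and with total counts 6 fell. The haem exporter gene Flvcr1 fell to 10.0 ± 0.642 CPM in myotubes, against 25.1 ± 1.53 CPM in myoblasts (log2 change −1.32, SE 0.11, adjusted p = 2.68e-11). Its paralog Flvcr2 rose, with 48, 44 and 46 counts in myotube libraries and 7, 4 and 7 counts in myoblast libraries (log2 change 3.52, SE 0.28, adjusted p = 2.07e-11). Both passed the test for more than 2-fold, in opposite directions. Of Flvcr1, 18.4% of the 50-base windows occur in another transcript.

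Among genes that use haem, 5 of 11 tested rose and 4 fell, against 40.2% and 39.2% of all genes tested. The median log2 change was 0.11. With total counts the median was −0.04, and 3 rose and 5 fell. The membrane subunit gene of succinate dehydrogenase Sdhd rose the most (log2 change 0.85, SE 0.11, adjusted p = 1.93e-07). Nos1, the neuronal nitric oxide synthase, fell the most, at 14 counts in all myotube libraries and 56 in all myoblast libraries (log2 change −1.37, SE 0.41, adjusted p = 0.00405). The haem A synthesis enzymes, named after their values were seen, diverged: Cox15 was at 130% and Cox10 at 77.2% of the myoblast level. Hccs, which attaches haem to cytochromes c, was at 141%.

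Regulators reported for Mb or Alas1 rose in 7 of 15 cases and fell in 4, against 40.2% and 39.2% of all genes tested. The median log2 change was 0.21, and with total counts 6 rose and 6 fell. Mef2c, a muscle transcription factor, had the largest increase, to 706 ± 39.7 CPM in myotubes, against 1.85 ± 0.355 CPM in myoblasts (SD, n = 3; log2 change 8.57, adjusted p = 8.52e-31). Ppargc1a, a coactivator of mitochondrial genes and of Alas1 in liver, had 35, 29 and 42 counts in myotube libraries and 5, 2 and 5 counts in myoblast libraries (log2 change 3.70, SE 0.34, adjusted p = 2.58e-10). Ppargc1a and the gene that follows were named after their values were seen. Epas1, the hypoxia-inducible factor HIF-2 alpha, had 74 counts in all myotube libraries and 6 in all myoblast libraries (log2 change 4.13, SE 0.41, adjusted p = 9.73e-10). Nrf1, described with Alas1, was the largest decrease on this list.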

How the data were processed

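RNA of 3 myotube and 3 myoblast samples was sequenced from mRNA libraries made with a stranded kit, per the labels' protocols. The authors deposited raw counts per gene, 1 column a library, made with fastp, STAR and featureCounts on mm10 per the submitters' processing notes; no source used here gives versions, the strand setting or the treatment of multiply mapped reads. Groups come from the sample titles and columns were matched by name. Genes without a symbol (1049) kept their Entrez ID.

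Counts were tested with edgeR 4.0.16 in R 4.3.3: filterByExpr (minimum count 10, minimum total 15), TMM, robust quasi-likelihood F test, and glmTreat at a log2 threshold of 1 for more than 2-fold. P-values were adjusted by Benjamini-Hochberg over the 12800 genes tested, with a threshold of 0.05. SE is the absolute log2 change over the square root of F, and understates the counting error where a group has few counts (Mb, Flvcr2, Ppargc1a and Epas1). Replicates were not identical (chi-square per degree of freedom 1.36 to 3.30). The procedure was tested on simulated counts in which only a small part of the genes changed. In these data 79.5% of the genes tested were called, a setting that the simulation did not cover.

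The members and lists were chosen with earlier results of these data known. Genes were named by rule: the members, further pathway steps, the largest change in each direction per list among called genes with at least 1 CPM on average, and the 3 genes nearest in profile to Mb, Hmox1 and Alas1; others are marked. A few genes that this rule or the lists include are not reported here. Exon lengths, overlaps and 50-base windows come from GENCODE M21, coordinates and promoter windows from RefSeq on GRCm38.p6. Alternatives used DESeq2 1.42.0 and limma 3.58.1.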

Additional observations from a re-analysis of the deposited data

How the results depend on the processing

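Over 15 alternatives, Mb, Alas1, Alad, Urod and Fech kept direction and call; no member changed sign. Cpox (0.14) and Hmox2 (0.07) lost their calls with total counts. Hmox1 was called lower with total counts (−0.27), no filter (−0.17), thinning (−0.15) and without myoblast library 3 (−0.15), so 2 members were then called lower instead of 1. Ppox was called higher with DESeq2 size factors (0.21) and in limma-voom (0.20). Leaving out each library gave log2 changes of 11.67 to 12.21 for Mb, −0.15 to −0.10 for Hmox1 and 0.15 to 0.23 for Ppox, and 1 to 2 members called lower. The cause of these shifts was not tested. With replicate number as a block, 6 members were higher and 1 lower (Mb 11.95, Hmox1 −0.12), and over all genes 5142 were higher and 5019 lower. Deviations of same-numbered libraries had correlations of 0 to 0.01 over 3 pairs, so no pairing by number was seen. With 3 libraries a group this cannot exclude that same-numbered samples were prepared together. The ratio of Hmox1 to Hmox2 and that of Alas1 to the other enzymes kept their sign throughout, with no p below 0.1 possible. Depth limits the myoblast level of Mb (18 counts).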
